A study of Mus musculus with 18 samples.

Results

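The genes described here are the 5 muscle acetylcholine receptor subunits (Chrna1, Chrnb1, Chrnd, Chrne and Chrng), 4 organisers of the neuromuscular junction (Agrn, Lrp4, Musk and Dok7) and the esterase Ache. They are 10 of the 41388 Ensembl genes counted in each library and were all measured. The set was taken by symbol, with earlier results of these data known. Total RNA, depleted of ribosomal RNA, was sequenced from the gastrocnemius and the soleus of mice aged 12 weeks, kept on chow and fasted for 4 h. Mice labelled knockout carried the floxed Site-1 Protease gene (S1P, Mbtps1) together with HSACre, in which the promoter of human skeletal actin drives Cre in muscle fibres. Control mice carried the floxed gene without Cre, so that no group had Cre alone. The titles gave 4 knockout and 5 control libraries of each muscle, 18 in all, against 4 per group in the series text. No label states that libraries of a group came from separate mice, so the p-values measure the spread between these libraries, which may be technical. Nor does a label state whether both muscles came from the same mice. Knockout and control titles follow the same order in both muscles, so shared mice are not excluded. The fits that join the muscles treated all 18 libraries as independent. Libraries are named by the number in their title.

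The adult receptor of the muscle endplate is a pentamer of the alpha, beta, delta and epsilon subunits. The fetal receptor carries gamma in place of epsilon, and in rodents gamma mRNA declines after birth as muscle becomes innervated. Agrin, released by the motor nerve, binds LRP4 on the fibre. LRP4 then activates the receptor kinase MuSK, which works with its adaptor DOK7 to cluster receptors under the nerve terminal. Electrical activity restrains subunit transcription outside the endplate, and in rodents denervation raises the mRNAs of the alpha and gamma subunits and of MuSK along the whole fibre.

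Library totals were 41.9 to 55.8 M counts in gastrocnemius knockout libraries, 39.0 to 51.2 M in gastrocnemius control libraries, 46.2 to 68.3 M in soleus knockout libraries and 46.5 to 78.2 M in soleus control libraries. The knockout labels could not be checked from Mbtps1 itself. It averaged 37.6 ± 3.58 CPM (counts relative to library size, scaled by the TMM method) in gastrocnemius knockout libraries and 31.5 ± 2.40 CPM in gastrocnemius control libraries, with an adjusted p of 0.0945. A count over the whole gene does not show the loss of single exons. The muscle labels held: 10 of 10 slow fibre markers were higher, and 9 of 10 fast fibre markers lower, in soleus control libraries than in gastrocnemius control libraries. Of the 10 motor axon markers, Chat, the enzyme that makes acetylcholine, had a count of 0 in 17 of 18 libraries, whereas Slc18a3, which loads it into vesicles, averaged 2.63 ± 0.814 CPM in gastrocnemius knockout and 3.40 ± 0.464 CPM in gastrocnemius control libraries, and 1.80 ± 0.397 CPM in soleus knockout and 1.68 ± 0.410 CPM in soleus control libraries. The 10 together summed to 4.07 to 5.65 CPM in gastrocnemius knockout and 4.53 to 6.26 CPM in gastrocnemius control libraries. In the soleus they summed to 4.73 to 6.66 CPM in knockout and 5.14 to 6.00 CPM in control libraries. On average most of the sum came from Slc18a3 and Syt2. Syt2, with a mean count of 142.83, is overlapped on the other strand by Ppp1r12b, with 30068.44, so its count is uncertain. How far these sums follow the content of motor axons was not tested.

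Muscle regulatory factors of the MyoD family bind E boxes, and ETS factors bind the N box of synaptic promoters. RefSeq promoter windows (GRCm38.p6, the 250 bases before a start site) were at hand for 8 of the genes, all but Chrnd and Lrp4. RefSeq starts differ from the ends of the genes as counted. The windows of Chrng and Ache, and a window each of Agrn and Dok7, lie inside the counted gene. Those of Chrnb1, Chrne and Musk reach into it by a few bases. Windows of the 4 genes with the stricter E box are shown because they include the alpha and gamma subunits, which rose, the adult epsilon subunit and the kinase gene that fell. Capitals mark the E box (CANNTG, which reads the same on both strands) and, in Chrne alone, the N box (CCGGAA, sought on both strands). The windows lie at chr2:73580339-73580588 on the minus strand (Chrna1), chr1:87205561-87205810 on the plus strand (Chrng), chr11:70619195-70619444 on the minus strand (Chrne) and chr4:58285712-58285961 on the plus strand (Musk).
Chrna1: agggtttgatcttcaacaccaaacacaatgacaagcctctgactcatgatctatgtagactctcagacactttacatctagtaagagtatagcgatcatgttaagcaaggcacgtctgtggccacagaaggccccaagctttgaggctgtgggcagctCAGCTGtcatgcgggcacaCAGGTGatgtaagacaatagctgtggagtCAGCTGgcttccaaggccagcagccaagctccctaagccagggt
Chrng: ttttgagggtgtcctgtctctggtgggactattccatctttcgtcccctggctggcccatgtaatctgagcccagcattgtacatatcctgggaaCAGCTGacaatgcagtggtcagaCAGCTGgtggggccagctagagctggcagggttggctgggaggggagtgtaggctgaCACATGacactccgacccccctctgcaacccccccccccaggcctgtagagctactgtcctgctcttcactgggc
Chrne: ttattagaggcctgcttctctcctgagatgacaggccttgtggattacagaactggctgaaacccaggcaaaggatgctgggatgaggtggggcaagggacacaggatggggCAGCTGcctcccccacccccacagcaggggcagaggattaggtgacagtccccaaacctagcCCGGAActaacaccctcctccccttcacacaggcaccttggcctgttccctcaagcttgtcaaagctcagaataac
Musk: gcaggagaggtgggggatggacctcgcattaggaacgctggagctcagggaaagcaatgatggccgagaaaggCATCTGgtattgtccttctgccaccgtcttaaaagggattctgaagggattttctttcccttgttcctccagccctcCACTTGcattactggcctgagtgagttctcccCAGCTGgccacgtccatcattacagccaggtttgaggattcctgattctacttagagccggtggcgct

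The Chrna1, Chrng and Musk windows held 3 E boxes each and the Chrne window held 1. Of the 10 windows of these genes 8 held an E box, as did 66.22% of 32851 mouse promoter windows. The stricter letters CAGCTG are a form of the E box and are counted in both totals. They stood in 4 of the 10 windows of these genes and in 13% of all windows. Chrnb1 and Ache, which also rose in the gastrocnemius, had 3 and 1 E boxes and 0 of the stricter form. The N box stood in 1 of the 10 windows and in 12.03% of all windows, and in Chrne it began 76 bases before the start. Such a match is a description of these letters and shows no bound factor.

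Per kilobase of listed gene length, the order of the mRNA levels differed between groups. In gastrocnemius knockout libraries Chrnb1 was highest at 15.6 ± 2.77 CPM per kb, followed by Ache at 14.8 ± 1.60 and Musk at 12.1 ± 2.01, and the ranges of these neighbours overlapped. In gastrocnemius control libraries Musk was highest at 22.3 ± 3.10 CPM per kb and stood apart from Chrnb1 at 10.6 ± 0.811 and Ache at 10.1 ± 0.893, which overlapped each other. Thus the kinase led the list in control libraries and came after Chrnb1 and Ache in knockout libraries (SD, n = 4 and 5). In the soleus, Musk led in both groups, at 17.3 ± 3.84 CPM per kb in knockout and 19.2 ± 3.05 in control libraries, and its range lay above that of Chrnb1. Chrng was lowest in all 4 groups, at 0.349 ± 0.156 in gastrocnemius knockout, 0.0867 ± 0.0209 in gastrocnemius control, 0.362 ± 0.202 in soleus knockout and 0.0867 ± 0.0249 CPM per kb in soleus control libraries. Chrnd was next lowest everywhere, and its range lay above that of Chrng in each group.

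In the gastrocnemius, 5 of the 10 genes changed in knockout libraries, against 3.78% of the 16393 genes tested (edgeR quasi-likelihood test with Benjamini-Hochberg adjustment over all genes, threshold 0.05). Chrng, Chrna1, Chrnb1 and Ache rose, and Musk fell. The groups did not overlap for these 5, against 8.41% of all genes tested. The median log2 fold change was 0.08 over the 10 genes and 0.02 over all genes. In bulk muscle, a change in the RNA of each fibre and a change in how many cells or nuclei express a gene cannot be told apart.

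Chrng (ENSMUSG00000026253, chromosome 1, 87204657 to 87212694, GRCm38), the fetal gamma subunit, had 1.08, 1.46, 2.37 and 0.912 CPM in gastrocnemius knockout libraries 2, 6, 7 and 9. Gastrocnemius control libraries 1, 3, 4, 5 and 8 had 0.237, 0.428, 0.413, 0.425 and 0.302 CPM. The lowest knockout library was above the highest control library, although the gene was rare, with 47 to 96 reads in knockout and 11 to 16 reads in control libraries. The log2 fold change was 2.01 (SE 0.34, adjusted p = 0.00601), a 4.03-fold difference.

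Chrna1 (ENSMUSG00000027107, chromosome 2, 73563215 to 73580338), the alpha subunit that binds acetylcholine, had 24.6, 25.4, 43.0 and 20.1 CPM in gastrocnemius knockout libraries 2, 6, 7 and 9. In gastrocnemius control libraries 1, 3, 4, 5 and 8 it had 11.2, 9.56, 10.7, 11.7 and 13.3 CPM. Control libraries lay close together, and knockout library 7 stood far above the other knockout libraries. Chrna1 had a log2 fold change of 1.32, with an SE of 0.20 and an adjusted p of 0.00861.

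Chrnb1 (ENSMUSG00000041189, chromosome 11, 69784036 to 69795943), the beta subunit shared by the fetal and adult receptor, had 34.3, 35.9, 49.7 and 37.8 CPM in those knockout libraries and 27.4, 24.2, 27.5, 25.3 and 29.5 CPM in those control libraries. Library 7 was again the highest, and the groups did not overlap. The change was smaller than that of Chrna1, at 0.56 on the log2 scale (SE 0.10, adjusted p = 0.0087).

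Neither the delta subunit, which the fetal and adult receptor share, nor the epsilon subunit passed the test in the gastrocnemius. Chrnd (ENSMUSG00000026251, chromosome 1, 87190607 to 87200070), the delta subunit, averaged 3.73 ± 0.913 CPM in knockout and 3.85 ± 0.774 CPM in control libraries (log2 fold change -0.05, adjusted p = 0.934). Chrne (ENSMUSG00000014609, chromosome 11, 70614883 to 70619216), the adult epsilon subunit, averaged 8.34 ± 0.591 CPM in knockout and 8.31 ± 1.34 CPM in control libraries. Its log2 fold change was 0.01, with an approximate 95% interval of -0.24 to 0.25. Chrnd and Chrng lie side by side on the plus strand of chromosome 1, yet only Chrng passed the test; the difference between the 2 was not tested. Chrne is overlapped on the other strand by 4930544D05Rik, whose mean count was 7.84% of that of Chrne, and the sources used here do not state whether the counting used strand.

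**Figure D1:**
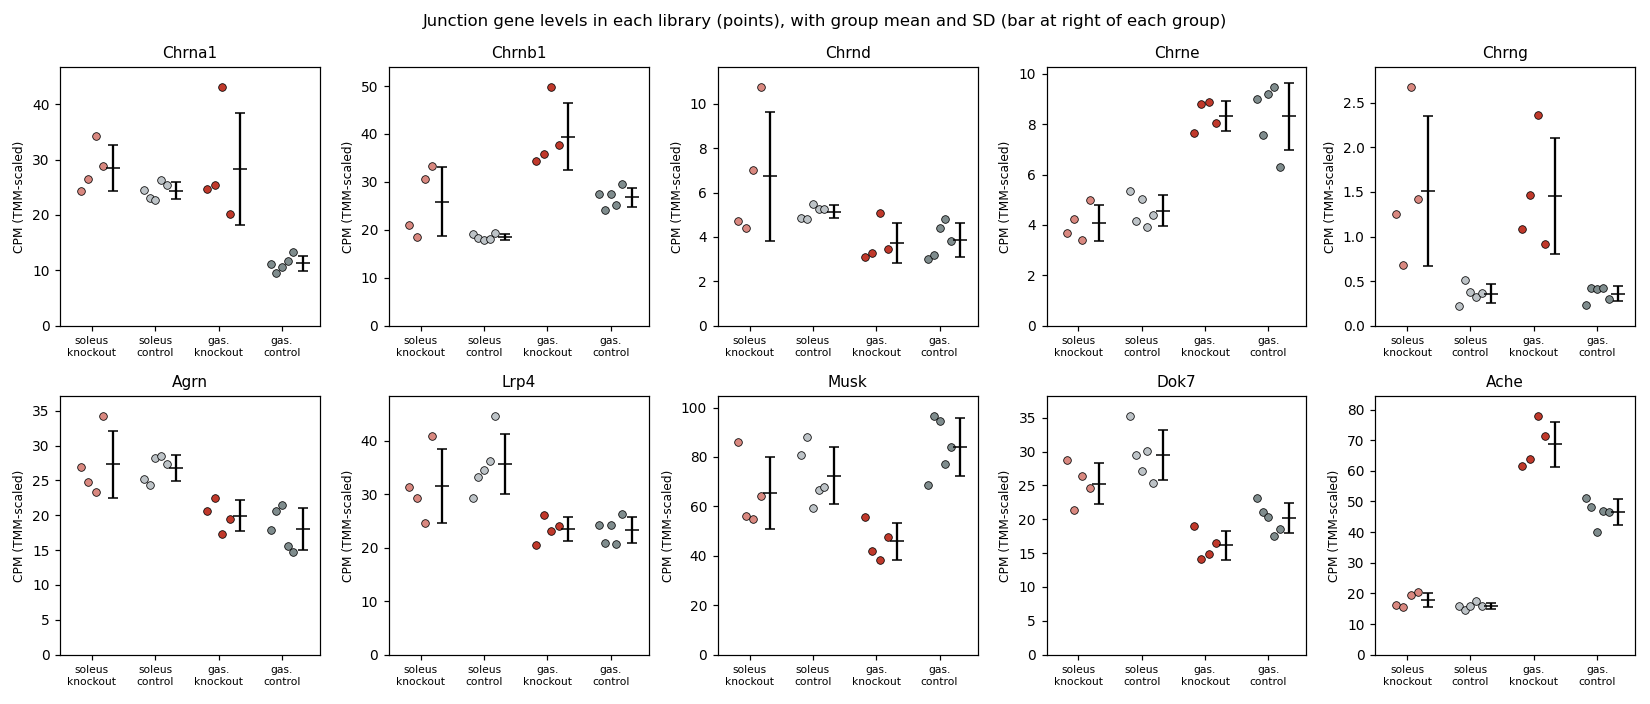
Level of each of the 10 genes in every library, in TMM-scaled CPM (vertical axes, from 0), with points for libraries and bars for the group mean and SD. In the gastrocnemius, knockout points lie above all control points for Chrna1, Chrnb1, Chrng and Ache and below them for Musk; in the soleus the groups separate for Chrng alone.

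The share of the fetal subunit was computed as Chrng over Chrng plus Chrne, each per kilobase. It was 5.43%, 6.32%, 9.77% and 4.39% in gastrocnemius knockout libraries 2, 6, 7 and 9, and 1.05%, 2.25%, 1.79%, 1.79% and 1.90% in gastrocnemius control libraries 1, 3, 4, 5 and 8. In the soleus it was 12.1%, 6.12%, 24.2% and 10.4% in knockout libraries 35, 39, 40 and 42, and 1.69%, 4.77%, 2.93%, 3.21% and 3.31% in control libraries 34, 36, 37, 38 and 41. In neither muscle did the groups overlap, and epsilon mRNA remained the larger part in all 18 libraries. The group means were 6.48 ± 2.33% in gastrocnemius knockout and 1.76 ± 0.436% in gastrocnemius control libraries, and 13.2 ± 7.73% in soleus knockout and 3.18 ± 1.10% in soleus control libraries (SD, n = 4 and 5; no test was made). The same Chrng counts underlie this share and the fold change above. The size of the share rests on the listed lengths, 4163 bases for Chrng and 1690 bases for Chrne. Without division by length, soleus knockout library 40 had 2.67 CPM of Chrng and 3.40 CPM of Chrne.

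The ratio of beta to alpha mRNA also differed between the gastrocnemius groups. It uses the same counts as the fold changes of Chrna1 and Chrnb1 above, and no test of it was made. Chrnb1 was 2.53 ± 0.526 times Chrna1 per kilobase in knockout libraries and 4.14 ± 0.329 times in control libraries, and the ranges of 2.00 to 3.26 and 3.75 to 4.47 did not overlap. In the soleus the ratio was 1.56 ± 0.332 in knockout and 1.32 ± 0.0748 in control libraries, and the ranges overlapped.

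**Figure D2:**
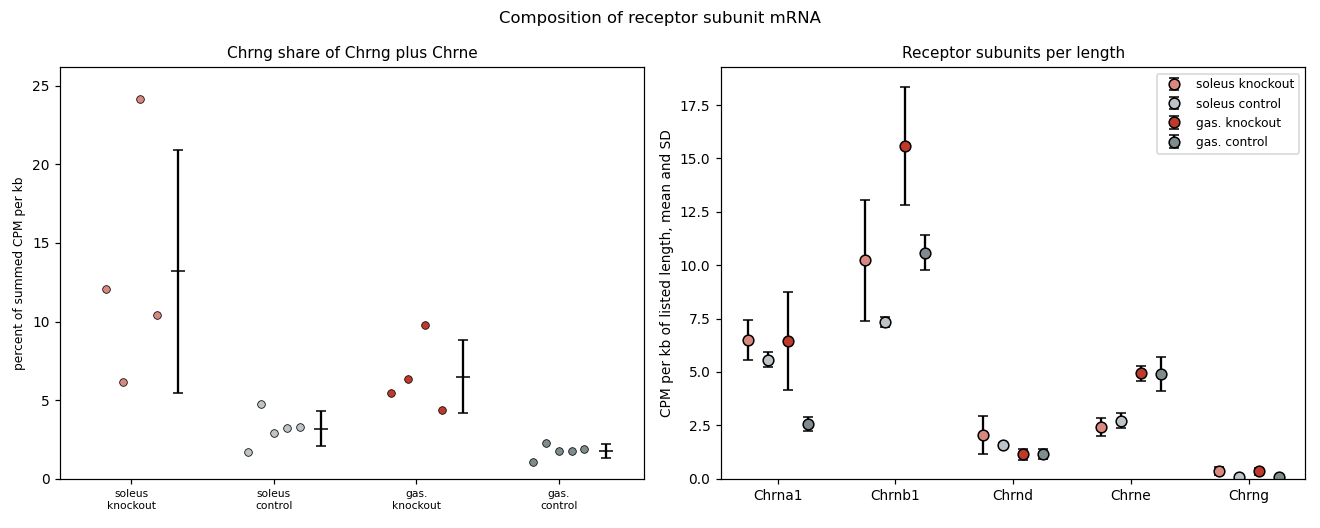
Left, Chrng as a percent of Chrng plus Chrne (CPM per kb) in every library, with group mean and SD; right, group mean and SD of each subunit in CPM per kb of listed length. Knockout libraries run from 6.12% to 24.2% in the soleus and from 4.39% to 9.77% in the gastrocnemius, above the control libraries of the same muscle.

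Musk (ENSMUSG00000057280, chromosome 4, 58285960 to 58374303), the receptor kinase of the endplate, had 55.6, 41.9, 38.1 and 47.7 CPM in gastrocnemius knockout libraries 2, 6, 7 and 9. It had 68.6, 96.5, 94.4, 77.0 and 84.0 CPM in gastrocnemius control libraries 1, 3, 4, 5 and 8. All 4 knockout libraries lay below all 5 control libraries. Its log2 fold change was -0.87 (SE 0.13, adjusted p = 0.00429). It was thus the 1 gene of the 10 that fell, and library 7, the highest for the rising subunits, was the lowest for Musk.

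The partners of MuSK did not pass the test. Dok7 (ENSMUSG00000044716, chromosome 5, 35056813 to 35087839), its cytoplasmic adaptor, had 19.0, 14.1, 14.9 and 16.5 CPM in knockout and 23.1, 21.1, 20.4, 17.5 and 18.6 CPM in control libraries. The groups overlapped through knockout library 2, and the log2 fold change was -0.32 (SE 0.10, adjusted p = 0.111). Without library 2 it was -0.41 with an adjusted p of 0.028, and with no filter on low counts -0.33 with 0.0468. Agrn (ENSMUSG00000041936, chromosome 4, 156165290 to 156197488), which muscle also transcribes, averaged 19.95 ± 2.18 CPM in knockout and 18.04 ± 3.00 CPM in control libraries (log2 fold change 0.15, adjusted p = 0.571). Lrp4 (ENSMUSG00000027253, chromosome 2, 91457511 to 91513779), the agrin receptor, averaged 23.5 ± 2.30 CPM in knockout and 23.3 ± 2.43 CPM in control libraries, and the approximate 95% interval of its log2 fold change was -0.17 to 0.19.

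Ache (ENSMUSG00000023328, chromosome 5, 137287519 to 137294466), which breaks down acetylcholine in the cleft, had 61.5, 64.0, 77.8 and 71.3 CPM in gastrocnemius knockout libraries 2, 6, 7 and 9. Gastrocnemius control libraries 1, 3, 4, 5 and 8 had 51.2, 48.3, 40.0, 47.0 and 46.4 CPM. The groups did not overlap, and the log2 fold change was 0.56 (SE 0.08, adjusted p = 0.0036). Colq, the collagen tail that anchors the esterase, averaged 7.74 ± 0.736 CPM in knockout and 8.79 ± 1.02 CPM in control libraries and did not pass (log2 fold change -0.18, adjusted p = 0.424). Colq shares its locus with Hacl1 on the same strand, so its count is uncertain.

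Gastrocnemius knockout library 7 was the highest of its group for all 5 subunits and for Ache and the lowest for Musk and Agrn. It also held more macrophage and fibroblast mRNA. Its summed level of the 10 macrophage markers was 302.5 CPM, against 160 to 166 CPM in the other knockout libraries and 116 to 169 CPM in control libraries. Its summed level of the 9 fibroblast markers was 5370 CPM, against 3521 to 3738 CPM in the other knockout libraries and 2559 to 4441 CPM in control libraries. Over the whole comparison 9 of 10 macrophage markers had a positive log2 fold change (median 0.64), 8 had an unadjusted p under 0.05, as did 3057 of all 16393 genes, and 1 passed. Of the fibroblast markers 8 of 9 were positive (median 0.21), 3 had an unadjusted p under 0.05 and 0 passed. No marker of either list was at 0 in any library. Without library 7 all 5 calls held, with log2 fold changes of 1.68 for Chrng, 1.05 for Chrna1, 0.43 for Chrnb1, 0.50 for Ache and -0.80 for Musk. The part of the other cell types in these results was not tested.

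Of the 7 markers of satellite cells, the stem cells of muscle, 6 had a positive log2 fold change in the gastrocnemius (median 0.56), and 5 had an unadjusted p under 0.05. Pax7 rose and Cdh15 fell (named after their values were seen), and they lost their calls in 7 and 10 of 16 alternative fits. The summed level of the 7, of which Cdh15 was a large part, was 43.8 to 60.0 CPM in gastrocnemius knockout and 47.4 to 53.2 CPM in gastrocnemius control libraries. The 12 Schwann cell markers summed to 159 to 290 CPM in knockout and 191 to 336 CPM in control libraries. Their median log2 fold change was -0.24, and 11 of the 12 were negative. The other, Ngfr, a receptor that Schwann cells raise after nerve injury in rodents, rose (log2 fold change 1.32, adjusted p = 0.0267; named after its value was seen). It had 2.31 ± 0.868 CPM in knockout and 0.922 ± 0.284 CPM in control libraries, the groups overlapped, and the call was lost in 6 of 16 alternative fits. None of these markers was at 0 in any library. The 10 slow fibre markers summed to 463 to 996 CPM in gastrocnemius knockout and 974 to 1497 CPM in gastrocnemius control libraries, and to 13494 to 19841 CPM in soleus knockout and 20398 to 25273 CPM in soleus control libraries. Of the 10, 9 had a negative log2 fold change in each muscle, with a median of -0.62 in the gastrocnemius and -0.35 in the soleus. An unadjusted p was under 0.05 for 6 in the gastrocnemius and 8 in the soleus, as for 3057 of 16393 and 1481 of 18087 genes tested. The groups did not overlap for 2 of these markers in the gastrocnemius and 5 in the soleus, against 8.41% and 2.55% of all genes. After adjustment 1 slow fibre marker passed in the gastrocnemius (Myl2, named after its value was seen) and 0 in the soleus. The part of these markers in the results was not tested.

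In the soleus, 0 of the 10 genes passed the edgeR test, against 0.0553% of the 18087 genes tested. At an unadjusted p under 0.05, 3 of the 10 did (Chrng, Chrnb1 and Chrna1), as did 1481 of all genes, and DESeq2 called 1 of the 10. The groups did not overlap for 1 gene, Chrng, against 2.55% of all genes tested. The median log2 fold change of the 10 was 0.11, and that of all genes 0.00.

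Chrng had 1.25, 0.680, 2.67 and 1.43 CPM in soleus knockout libraries 35, 39, 40 and 42. Soleus control libraries 34, 36, 37, 38 and 41 had 0.227, 0.513, 0.373, 0.321 and 0.370 CPM. All 4 knockout libraries were above all 5 control libraries, with 49 to 142 and 14 to 37 reads. The log2 fold change of 2.05 (SE 0.36) was near that of the gastrocnemius, and the adjusted p was 0.083 in edgeR. It was 9.35e-05 in DESeq2, 0.0148 in an edgeR fit of all 18 libraries and 0.00467 with no filter on low counts. It was 0.0436 without knockout library 35 and 0.0237 without knockout library 39, while the log2 fold change without library 40 was 1.62 with an adjusted p of 0.213.

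Chrna1 did not pass in the soleus, with 24.4, 26.5, 34.2 and 28.8 CPM in knockout libraries and 24.5, 23.1, 22.7, 26.3 and 25.5 CPM in control libraries. Library 40 was the highest, and the lowest knockout library lay inside the control range. Its log2 fold change was 0.23 (SE 0.09, adjusted p = 0.547), with an approximate 95% interval of 0.05 to 0.42. Chrnb1 had 21.1, 18.5, 30.5 and 33.4 CPM in knockout libraries and 19.1, 18.3, 17.9, 18.1 and 19.4 CPM in control libraries. Libraries 40 and 42 carried its difference, while library 39 lay within the control range (log2 fold change 0.49, SE 0.16, adjusted p = 0.449).

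Chrnd spread widely in the same group. It had 4.74, 4.40, 7.03 and 10.7 CPM in soleus knockout libraries and 4.86, 4.83, 5.49, 5.24 and 5.28 CPM in soleus control libraries. Libraries 40 and 42 lay above all control libraries and 35 and 39 below them (log2 fold change 0.40, SE 0.23, adjusted p = 0.714). Chrne averaged 4.08 ± 0.697 CPM in knockout and 4.57 ± 0.598 CPM in control libraries and overlapped throughout.

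Musk had 86.2, 56.1, 54.9 and 64.0 CPM in soleus knockout libraries and 80.7, 87.9, 59.5, 66.6 and 67.8 CPM in soleus control libraries. The 2 groups overlapped over most of their range, and the log2 fold change was -0.14 (SE 0.15, adjusted p = 0.87). The remaining organisers overlapped too. Agrn averaged 27.3 ± 4.83 CPM in knockout and 26.8 ± 1.84 CPM in control libraries, Lrp4 31.5 ± 6.85 CPM in knockout and 35.6 ± 5.63 CPM in control libraries, and Dok7 25.3 ± 3.07 CPM in knockout and 29.5 ± 3.72 CPM in control libraries. Ache had 16.2, 15.7, 19.4 and 20.4 CPM in knockout and 15.7, 14.5, 15.7, 17.4 and 15.9 CPM in control libraries (log2 fold change 0.18, SE 0.09, adjusted p = 0.649).

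Within the soleus knockout group, library 42 was the highest for 6 genes (Chrnb1, Chrnd, Chrne, Agrn, Lrp4 and Ache) and library 40 for Chrna1 and Chrng. Library 40 was the lowest for Chrne, Agrn, Lrp4 and Musk. The 10 macrophage markers summed to 171 CPM in library 40, against 96.6 to 116 CPM in the other knockout libraries and 74.3 to 122 CPM in control libraries. The 9 fibroblast markers summed to 3097 CPM in library 40 and 2479 CPM in library 42, against 1472 to 1771 CPM in the other knockout libraries and 1378 to 2201 CPM in control libraries. Over the whole comparison 9 of 10 macrophage markers (median 0.45) and 8 of 9 fibroblast markers (median 0.26) had a positive log2 fold change. An unadjusted p was under 0.05 for 5 and 1 of them, and none passed after adjustment. Their part in these values was not tested.

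The difference between the muscles in their response to the knockout was tested as an interaction over all 18 libraries, as soleus minus gastrocnemius. It was called for 0 of the 10 genes, against 0.0703% of 18494 genes tested by edgeR. At an unadjusted p under 0.05, 3 of the 10 (Chrna1, Musk and Ache) and 999 of all genes differed, and DESeq2 called 1 of the 10. The largest of the 10 in size was that of Chrna1, at -1.10 (SE 0.23, adjusted p = 0.133). It was called by DESeq2 (-1.07, adjusted p = 0.00443) and in edgeR without gastrocnemius knockout library 9 (-1.24, adjusted p = 0.023). Without gastrocnemius knockout library 7 it was -0.79, with an adjusted p of 0.0552. The differences were 0.72 for Musk (SE 0.21, adjusted p = 0.512) and -0.38 for Ache (SE 0.13, adjusted p = 0.615). For Chrng the difference was 0.03 (SE 0.52), with an approximate 95% interval of -0.995 to 1.048.

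**Figure D3:**
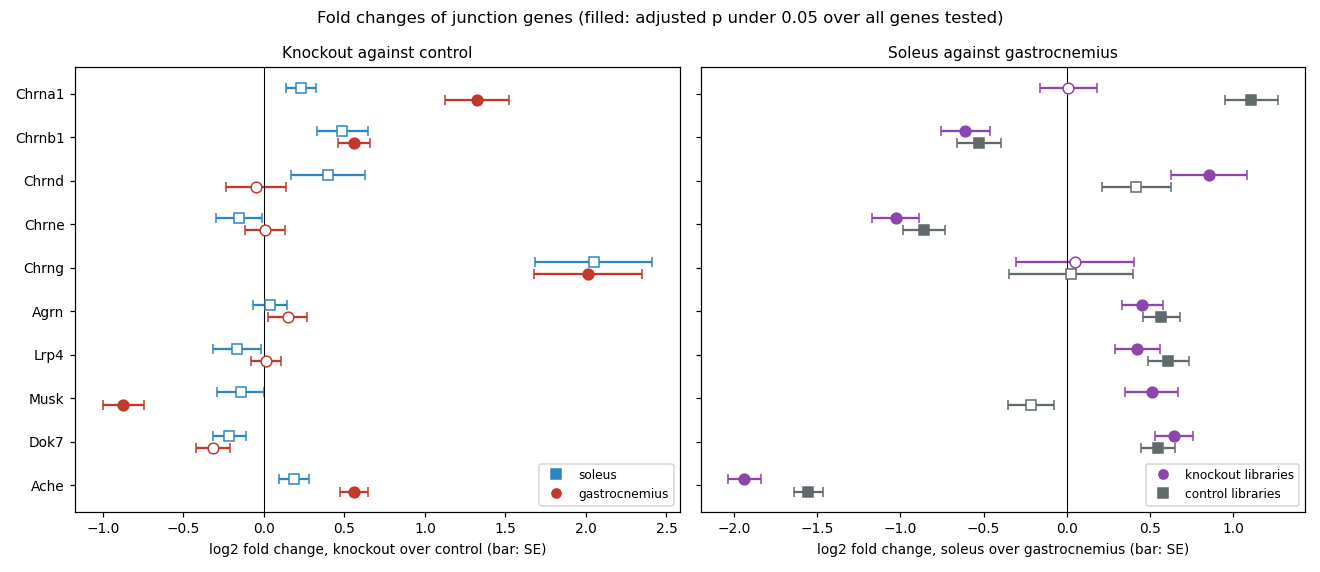
Log2 fold changes with SE for each gene, knockout over control in each muscle (left) and soleus over gastrocnemius in each genotype (right); filled symbols passed the edgeR test over all genes. On the left, filled symbols are the 5 gastrocnemius calls; on the right, Chrna1 is filled for control libraries at 1.11 and open for knockout libraries at 0.01.

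The muscles themselves differed in most of these genes. Between soleus and gastrocnemius control libraries 7 of the 10 passed, against 49.3% of 18494 genes, and between knockout libraries 8 of the 10 passed, against 37.8%. The median log2 difference was 0.22 for the 10 and 0.08 for all genes in control libraries, and 0.24 and 0.03 in knockout libraries. Scaling by library totals in place of TMM shifted the median of all genes by 0.26 in control and 0.23 in knockout libraries. These comparisons reuse the libraries of the knockout comparisons.

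Among the receptor subunits, Chrna1 was higher in soleus than in gastrocnemius control libraries, at 24.4 ± 1.53 and 11.3 ± 1.39 CPM (log2 fold change 1.11, edgeR adjusted p = 1.22e-05). In knockout libraries its means were 28.5 ± 4.21 CPM in the soleus and 28.3 ± 10.1 CPM in the gastrocnemius, a log2 fold change of 0.01 (SE 0.17). The gastrocnemius knockout libraries spread from 20.1 to 43.0 CPM, below and above the 22.7 to 26.3 CPM of soleus control libraries. Those groups were not tested against each other. Chrne was lower in the soleus in both genotypes, with log2 fold changes of -1.03 in knockout and -0.86 in control libraries. Chrnb1 was also lower, with -0.61 in knockout and -0.53 in control libraries. That call was lost with library totals, at -0.37 with an adjusted p of 0.0838 in knockout and -0.26 with 0.144 in control libraries.

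Chrnd was higher in soleus than in gastrocnemius knockout libraries (6.73 ± 2.92 and 3.73 ± 0.913 CPM, log2 fold change 0.85, edgeR adjusted p = 0.00576). In control libraries its means were 5.14 ± 0.287 CPM in the soleus and 3.85 ± 0.774 CPM in the gastrocnemius, and the adjusted p was 0.0983. That became 0.0121 with library totals and 0.0243 when only the 2 control groups were fitted. Chrng was at the same mean in both control groups, 0.361 CPM, and near it in both knockout groups, 1.51 ± 0.839 CPM in the soleus and 1.45 ± 0.649 CPM in the gastrocnemius.

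Ache showed the widest gap of the 10 between the muscles. It averaged 17.9 ± 2.31 CPM in soleus and 68.6 ± 7.40 CPM in gastrocnemius knockout libraries, and 15.9 ± 1.02 CPM in soleus and 46.6 ± 4.13 CPM in gastrocnemius control libraries (log2 fold changes -1.94 and -1.55, edgeR adjusted p = 1.36e-12 and 2.3e-12). Agrn, Lrp4 and Dok7 were higher in the soleus in both genotypes, by 0.45, 0.43 and 0.64 on the log2 scale in knockout libraries and by 0.57, 0.61 and 0.55 in control libraries. Lrp4 lost that call between knockout libraries without gastrocnemius knockout 2 (adjusted p = 0.0558) or soleus knockout 42 (0.0877). Musk was higher in the soleus in knockout libraries, at 65.3 ± 14.5 CPM against 45.8 ± 7.59 CPM in the gastrocnemius (log2 fold change 0.51, edgeR adjusted p = 0.0162). This call was lost without gastrocnemius knockout 7 (0.054) or soleus knockout 35 (0.0679). In control libraries Musk averaged 72.5 ± 11.5 CPM in the soleus and 84.1 ± 11.7 CPM in the gastrocnemius, a log2 fold change of -0.21 that did not pass and was 0.05 with library totals.

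Regulators that tie subunit transcription to muscle activity were taken as a list of 14 genes, all tested. In the gastrocnemius 3 rose, Gadd45a, Myod1 and Runx1, and 1 fell, Dach2, against 3.78% of all genes called. The median log2 fold change of the list was 0.12, against 0.02 for all genes. In the soleus 0 passed, and the median was 0.10. DACH2 is a corepressor that in mouse muscle restrains myogenin, an activator of subunit promoters. Dach2 had 0.875, 1.20, 0.296 and 0.741 CPM in gastrocnemius knockout libraries 2, 6, 7 and 9, and 2.67, 3.13, 2.33, 3.88 and 2.09 CPM in gastrocnemius control libraries 1, 3, 4, 5 and 8. The groups did not overlap (log2 fold change -1.85, SE 0.32, adjusted p = 0.00732), and library 7 was again the extreme one.

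Dach2 was more abundant in the soleus, with 2.68, 5.29, 0.715 and 3.06 CPM in knockout libraries 35, 39, 40 and 42 and 10.03, 13.6, 14.4, 10.7 and 9.81 CPM in control libraries 34, 36, 37, 38 and 41. These groups did not overlap either, and library 40 was the lowest. Although the log2 fold change was -1.97 (SE 0.45), the adjusted p was 0.283. Myog, which encodes myogenin, had 8.12, 7.96, 15.9 and 5.03 CPM in gastrocnemius knockout libraries and 5.51, 6.96, 5.05, 5.71 and 5.22 CPM in gastrocnemius control libraries. The groups overlapped through library 9 (log2 fold change 0.70, SE 0.28, adjusted p = 0.214). In the soleus Myog averaged 5.38 ± 2.47 CPM in knockout and 2.74 ± 0.566 CPM in control libraries (log2 fold change 0.99, adjusted p = 0.416).

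Myod1, the muscle determination factor, averaged 28.6 ± 2.86 CPM in gastrocnemius knockout and 18.4 ± 3.12 CPM in gastrocnemius control libraries (log2 fold change 0.64, adjusted p = 0.0105). Gadd45a, a stress gene induced by denervation in mouse muscle, averaged 20.5 ± 4.19 CPM in knockout and 10.9 ± 1.90 CPM in control libraries (0.91, adjusted p = 0.00864). Runx1, a transcription factor likewise raised by denervation in rodents, averaged 16.5 ± 5.54 CPM in knockout and 7.43 ± 1.05 CPM in control libraries (1.15, adjusted p = 0.0161). In a fit of all 18 libraries these 3 lost their calls, with an adjusted p of 0.354 for Myod1, 0.0636 for Gadd45a and 0.0866 for Runx1. Runx1 lost its call also without gastrocnemius control library 5 (0.0534) or knockout library 7.

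**Figure D4:**
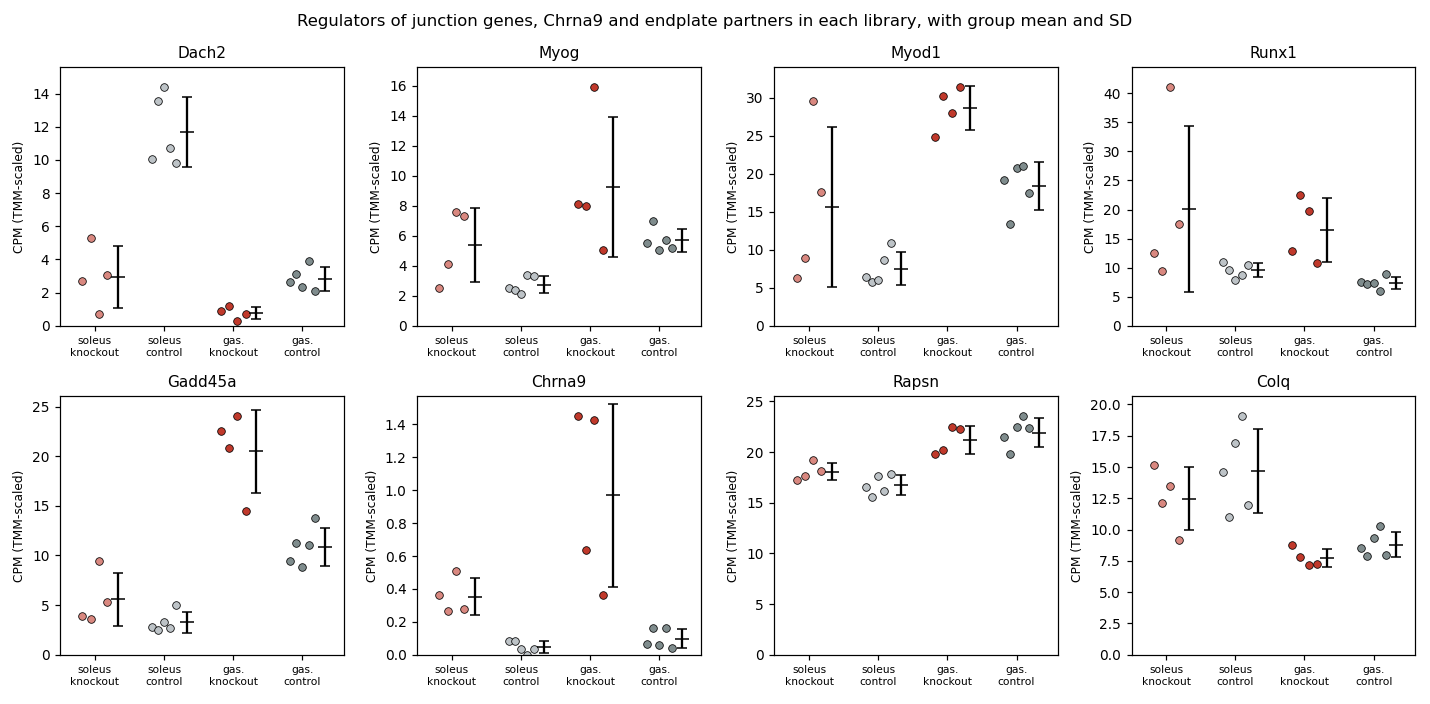
Levels in TMM-scaled CPM (vertical axes, from 0) of 5 regulators, of the receptor subunit Chrna9 and of the endplate partners Rapsn and Colq in every library, with group mean and SD. Dach2 lies lower in all knockout libraries than in all control libraries of the same muscle, and Chrna9 higher; Rapsn and Colq overlap between groups.

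Of 18 further genes known to respond to denervation in rodents, 17 were tested in the gastrocnemius. There 4 rose and 1 fell, against 3.78% of all genes called, with a median log2 fold change of 0.55 against 0.02 for all genes. Those that rose were Sln, a brake on the calcium pump (4.40, adjusted p = 0.00852), Mymk, the fusion factor myomaker (3.83, adjusted p = 0.03), the cardiac actin Actc1 (2.53, adjusted p = 0.0218) and the intermediate filament gene Nes (0.42, adjusted p = 0.0378). The one that fell was Fgfbp1, a binding protein for fibroblast growth factors (-2.18, adjusted p = 0.0036). It averaged 0.457 ± 0.242 CPM in knockout and 2.09 ± 0.548 CPM in control libraries. The ubiquitin ligases Fbxo32 and Trim63, which denervation raises in rodents, did not pass (-0.09 and -0.31, named after their values were seen). Mymk lost its call in 9 of 15 alternative fits, Nes in 7 of 16, Actc1 in 4 of 16 and Sln in 1 of 16 (limma voom, adjusted p = 0.0727). In the soleus 0 of 17 tested genes passed, with a median of 0.68 against 0.00.

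Rapsn, the scaffold protein that packs the receptors, averaged 21.2 ± 1.38 CPM in gastrocnemius knockout and 21.9 ± 1.401 CPM in gastrocnemius control libraries (log2 fold change -0.05, SE 0.08, adjusted p = 0.81). In the soleus it averaged 18.1 ± 0.845 CPM in knockout and 16.7 ± 0.979 CPM in control libraries (0.12, adjusted p = 0.735). Utrn, the dystrophin relative of the endplate, averaged 125 ± 11.7 CPM in gastrocnemius knockout and 114 ± 12.5 CPM in gastrocnemius control libraries (0.12, adjusted p = 0.516). Of the 25 scaffold and basal lamina genes, 1 rose and 1 fell in the gastrocnemius, against 3.78% of all genes called, and 12 had an unadjusted p under 0.05, as did 3057 of all 16393 genes. In the soleus 0 passed and 4 had an unadjusted p under 0.05. The median log2 fold change was 0.09 in the gastrocnemius and 0.08 in the soleus. The one that rose was the cytoskeletal linker Macf1 (0.37, adjusted p = 0.019), and the one that fell was Scn4a, the sodium channel of muscle (-0.29, adjusted p = 0.0418). Macf1 lost its call in 3 of 16 alternative fits and Scn4a in 8 of 16.

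Neuregulin receptors and ETS factors, which drive transcription in the nuclei under the nerve terminal, gave 1 call among 11 genes tested in the gastrocnemius, against 3.78% of all genes. Etv1, an ETS factor, averaged 4.05 ± 0.638 CPM in gastrocnemius knockout and 5.87 ± 0.413 CPM in gastrocnemius control libraries (log2 fold change -0.53, adjusted p = 0.0409). That call was lost in 9 of 16 alternative fits. Etv5, the relative enriched at mouse endplates, averaged 23.8 ± 2.79 CPM in knockout and 20.5 ± 1.52 CPM in control libraries (0.22, adjusted p = 0.19). Erbb3, a neuregulin receptor, averaged 6.74 ± 0.697 CPM in knockout and 7.19 ± 0.719 CPM in control libraries (-0.09, adjusted p = 0.74). The median of the list was -0.02 in the gastrocnemius and 0.02 in the soleus, where 0 passed.

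For 4 of the genes, the 3 other genes with the most similar profile over the 18 libraries were sought among 14483 genes. The measure was the mean absolute difference between z-scored log2(CPM + 0.5) values, so that 0 means identical profiles. For Chrna1 these were H19, a noncoding RNA (0.242), Lgmn (0.271) and Sln (0.286), against a median of 1.07 over all genes. For Chrng they were Serpinb1a (0.300), Mymk (0.330) and Soat1 (0.363), against 1.11. For Chrne they were Hs2st1 (0.241), Tbc1d10c (0.244) and Mtus1 (0.248), against 1.13. The closest to Musk were less alike, Dnajc13 (0.430), Slc15a5 (0.441) and Rnf144b (0.446), against 1.12. All values of a profile come from the same libraries, so that shared depth and cell makeup enter each of them.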

How the data were processed

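RNA of 18 mouse muscle libraries was analysed from deposited read counts per Ensembl gene. Per the submitters' processing notes the authors used the build GRCm38, STAR 2.5.1a, Subread and featureCounts 1.4.6-p5. No source used here gives the annotation release or the strand setting. Dividing the counts by library totals gave the deposited CPM (difference at most 4.9e-10), and dividing by listed length gave the deposited RPKM, which served for 1 alternative only. No pair of libraries agreed within sampling noise (at least 19.59 chi-square units per gene).

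The main fits were made with edgeR 4.0.16 in R 4.3.3, using TMM scaling, filterByExpr (minimum count 10, minimum total 15), the robust quasi-likelihood F-test and Benjamini-Hochberg adjustment over all genes tested with a threshold of 0.05. Every adjusted p is from edgeR unless another tool is named. Each knockout comparison used the 9 libraries of its muscle, and the muscle and interaction comparisons all 18 in 4 groups. Levels are TMM-scaled CPM, as mean ± SD over 4 knockout or 5 control libraries. An SE is the size of the fold change over the square root of F, and approximate 95% intervals follow from it. DESeq2 1.42.0 and limma 3.58.1 served as alternatives. The edgeR fits of the gastrocnemius knockout and interaction comparisons alone were also run on simulated data, with the outcome not given here. Symbols came from the GENCODE annotation of GRCm38 (97.26% of genes), and promoter letters from RefSeq.

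The genes and the lists were chosen with earlier results of these data known. Beside the 10 genes, the text names genes of the scaffold, neuregulin, activity and denervation lists that passed in a knockout comparison, Rapsn, Colq, Myog, Utrn, Erbb3 and Etv5 whatever their values, and the genes closest in profile. Others are marked as named after their values were seen. Read counts without molecular identifiers are not independent molecules, and their number limits precision for rare genes such as Chrng, Chrna9, Mymk and Fgfbp1.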

Additional observations from a re-analysis of the deposited data

Results flagged for a closer look

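Among 29 genes in 4 groups, 116 sets of libraries were searched for a library far from the others of its group, and 5 had one; chance alone gives about 1 in 20. None was among the 10 receptor and junction genes. Actc1, the cardiac actin, had 84.3 CPM in soleus knockout library 40 and 10.8 to 15.4 CPM in the other 3. Scn4a, the muscle sodium channel, had 627 CPM in gastrocnemius knockout library 7 and 734 to 744 CPM in the other 3. Etv1 had 4.47 CPM in soleus knockout library 42 and 3.46 to 3.54 CPM in the other 3. Utrn had 176 CPM in soleus control library 38 and 159.7 to 164 CPM in the other 4. Fgfbp1 had 0.0278 CPM in soleus knockout library 39 and a count of 0 in the other 3, which is too low for a level.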

How the results depend on the processing

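The 5 gastrocnemius calls held in each of 9 fits that left out a library and in every other fit, except that Chrng was not tested at a minimum count of 50. The count of genes called in the soleus was 1 (Chrng) with DESeq2, in the fit of all 18 libraries and with no filter, and 0 to 1 with a library left out. The interaction gave 1 (Chrna1) with DESeq2 and 0 to 1 with a library left out. With the stricter E box the count of genes with a match was 4, as its letters are rarer. The shares of Chrng were the same from RPKM by construction. Signs reversed for values near 0, none of which passed: Chrnd in the gastrocnemius was 0.0204 with library totals, and Chrne there was -0.0024 with DESeq2, -0.0027 with median-of-ratios factors and -0.0054 with no filter. Between control libraries Chrng was -0.0224 with DESeq2, -0.018 with median-of-ratios factors and -0.0199 with 2 groups fitted, and Musk was 0.0517 with library totals. Between knockout libraries Chrng was -0.0456 with limma voom, and in the interaction it was -0.0008 with library totals and -0.072 with voom. Leaving out a library gave -0.23 to 0.0376 for Chrnd, -0.0795 to 0.0508 for Chrne and -0.0412 to 0.0692 for Lrp4 in the gastrocnemius, and -0.10 to 0.10 for Agrn in the soleus. It gave -0.14 to 0.15 for Chrng between control libraries, -0.13 to 0.28 for Chrna1 and -0.38 to 0.39 for Chrng between knockout libraries, and -0.23 to 0.0874 for Chrnb1 and -0.40 to 0.40 for Chrng in the interaction. Over all genes, the gastrocnemius count of 619 was 1235 with DESeq2 and 206 to 1080 with a library left out. The soleus count of 10 was 166 with DESeq2, 28 in the fit of all 18 libraries, 48 with no filter and 3 to 66 with a library left out, and the interaction count of 13 was 52 and 2 to 23. The cause was not tested. No paired analysis was made. The groups compared share no replicate number, and no label ties a soleus library to a gastrocnemius library of the same mouse. Knockout and control titles run in the same order in libraries 1 to 9 and 34 to 42. A pairing would rest on that order alone, and likeness between the muscles may come from shared mice.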

Other observations

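Nicotinic subunits outside the muscle receptor were mostly rare. Of 11, 5 were tested in the gastrocnemius, and 1 rose, against 3.78% of all genes called. This was Chrna9, a subunit best known from hair cells of the inner ear, named after its values were seen. It had 63, 27, 58 and 19 reads in gastrocnemius knockout libraries 2, 6, 7 and 9, and 3, 6, 2, 6 and 2 reads in gastrocnemius control libraries 1, 3, 4, 5 and 8. The log2 fold change was 3.30 (SE 0.53, adjusted p = 0.00472), and the call held in all 15 alternative fits. In the soleus it had 18, 19, 27 and 17 reads in knockout libraries and 5, 6, 3, 0 and 2 reads in control libraries. These groups did not overlap either, but the log2 fold change of 2.81 (SE 0.53) had an adjusted p of 0.0949. Chrna10, the most abundant of the 11 and also named after its values were seen, did not pass. It averaged 14.4 ± 3.33 CPM in gastrocnemius knockout and 8.75 ± 1.87 CPM in gastrocnemius control libraries. The gastrocnemius groups did not overlap for 2 of the 5 tested, Chrna9 and Chrna10, against 8.41% of all genes tested. In the soleus Chrna10 averaged 14.5 ± 1.36 CPM in knockout and 12.0 ± 4.92 CPM in control libraries and overlapped. Which cells carried the reads of these subunits was not tested.

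Of 19 genes that act downstream of MuSK, 1 rose in the gastrocnemius, against 3.78% of all genes called, and 0 passed in the soleus, with medians of -0.03 and 0.00. The kinase gene Src averaged 6.25 ± 0.653 CPM in knockout and 3.97 ± 0.644 CPM in control libraries (log2 fold change 0.65, adjusted p = 0.0242). A further list held genes of myasthenia, of glycosylation or of receptor maturation, not all of them known myasthenia genes. Of its 9 tested genes 1 fell in the gastrocnemius, against 3.78% of all genes called, and 0 passed in the soleus. Gfpt1, the entry enzyme of amino sugar synthesis, averaged 51.1 ± 1.70 CPM in knockout and 60.8 ± 2.92 CPM in control libraries (-0.25, adjusted p = 0.0395). Src lost its call in 6 of 16 alternative fits and Gfpt1 in 9 of 16. Both were named after their values were seen.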
